A study of Mus musculus with 3 samples.

Results

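The mitochondrial ribosomal proteins, taken as every array probe whose gene name in the scanner files begins with Mrpl or Mrps, were compared between hippocampi of adult male mice born to older or to young mothers. They comprised 77 genes, 48 named for the large subunit (Mrpl) and 29 for the small subunit (Mrps), of 24617 named genes on the array. These genes had 109 probes, of which 108 were kept, the exception being a probe of Mrpl21. The members and the lists set beside them were chosen by name and known role, with earlier results of these data known.

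The older-mother group came from females bred at 15 to 18 months and the young-mother group, the control, from females bred at 3 months. The fathers in both groups were virgin males of 3 months, all offspring measured were male, and they were killed at postnatal day 120. The labels used here give no strain or genotype. Each RNA sample was a pool of equal amounts of hippocampal RNA from 3 males of a group, with 3 pools per group, so that the spread between animals is averaged within a pool, and whether pools share litters is not given in the sources used here. Each of the 3 two-colour arrays set 1 older-mother pool in the dye Cy3 against 1 young-mother pool in Cy5, never the reverse, so maternal age and dye cannot be told apart for any gene.

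Mitochondrial ribosomes translate the few messages of the mitochondrial genome, all of which encode subunits of the respiratory chain and of ATP synthase. Their RNAs come from mitochondrial DNA, but all of their proteins are encoded in the nucleus, made in the cytosol and imported. Many of these proteins have a counterpart in bacterial ribosomes, while others are found only in mitochondria. The small subunit binds and decodes the message, and the large subunit joins the amino acids and is held at the inner membrane. In neurons, which rely heavily on oxidative phosphorylation, defects of mitochondrial translation are a known cause of inherited disease.

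All values are log2 ratios of the older-mother over the young-mother pool as deposited, so a value above 0 means more signal in the older-mother pool, and each gene is represented by its brightest kept probe. On every array, all 77 of those probes stood well above background in both dyes, and 0 were saturated. A gene is said to have risen or fallen where limma's adjusted p (Benjamini-Hochberg, over all kept probes) was under 0.05. Across the 3 arrays the median signal over background was 57.0 to 62.0 intensity units in Cy3 and 150 to 162 in Cy5, and the number of arrays limits the precision. All 10 markers of hippocampal neurons were above background in both channels on every array. In RNA from whole tissue, fewer cells of a type and less RNA per cell cannot be told apart.

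Relative to genes of like brightness, mitoribosomal mRNA levels differed little between the groups. Of the 77 genes, 1 rose, Mrps6, and 3 fell, Mrpl17, Mrps24 and Mrpl54, which is 5.19% of them by limma's test, against 17.4% of the 17963 genes tested. The split over all genes was 1150 genes higher (6.40%) and 1967 lower (11.0%). The other 73 members did not pass, and the mean log2 ratios of all 77 lay between -0.39 and 0.35, with 32 above 0 and 45 below. None of the 77 reached a 1.5-fold difference, which 1.31% of all tested genes and 1.22% of those of like brightness did. The 95% interval of the difference, from limma's standard error, lay within 1.5-fold either way for all 77 members and within 1.2-fold for 61 of them. Each interval holds only the spread over arrays around a centre that the normalization sets, with dye and maternal age confounded. Without loess within arrays the members' median was -0.67, against -0.66 for genes of like brightness. The intervals had a median half-width of 0.12 log2 units, so differences smaller than this could not be resolved with 3 arrays.

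The share was also lower than among genes of like brightness, a comparison made because genes in that range varied less over the arrays (median SD 0.074, against 0.088 for all genes). The members were bright, with a median average log2 intensity of 11.52 against 8.92 for all genes tested. Between 9.69 and 12.75, the 10th and 90th percentiles of the members, there were 5586 other tested genes, of which 18.1% passed, 7.61% higher and 10.5% lower, against 6.56% of the 61 members in that range. Before adjustment, p was under 0.05 for 18 members (23.4%), against 37.9% of all genes and 39.0% of those of like brightness. The sign was the same on all 3 arrays for 42 members (54.5%), against 59.1% of all genes and 62.9% of genes of like brightness.

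Both the spread between members and the spread between arrays were narrower than among genes of like brightness. The middle 50% of members spanned 0.15 log2 units, compared with 0.21, and the median SD of a gene over the 3 arrays was 0.063, compared with 0.074. The median size of the log2 ratio, whatever its sign, was 0.080 for members and 0.11 for genes of like brightness. The members' median was -0.013, with -0.0049, -0.014 and -0.028 on arrays 1, 2 and 3, beside -0.018 for genes of like brightness and -0.030 for all genes. The members as a group thus sat near the centre of each array, but loess within arrays draws the genes of each brightness towards 0. Without loess their median was -0.67, against -0.45 for all genes, so this position is largely set by the processing. These medians are descriptions, without a test over the list.

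**Figure D1:**
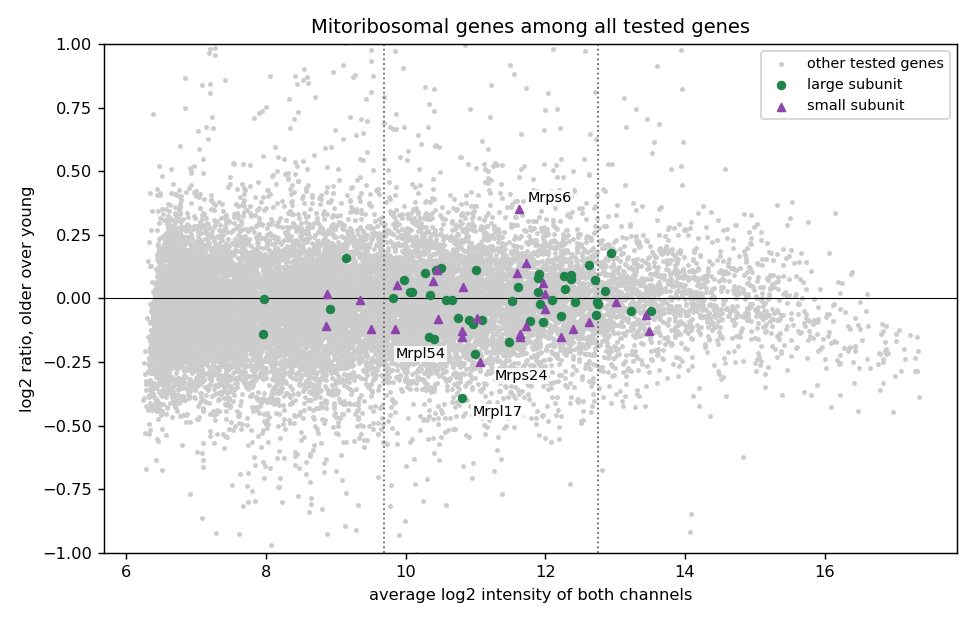
Mean log2 ratio of older over young mothers (vertical axis) against the average log2 intensity of both channels (horizontal axis) for each tested gene; green circles are large-subunit and purple triangles small-subunit genes, grey points all other tested genes, and dotted lines the intensities 9.69 and 12.75. The members lie in a narrow band from -0.39 to 0.35; the 4 that passed the test are named (Mrps6 was -0.33 without loess), and 48 other genes lie beyond the drawn range of 1 either way.

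The zero point of these ratios depends on the normalization within arrays. With each array centred on its median and no loess curve, the median of all genes moved from -0.030 to -0.45, 2990 genes were called higher and 12443 lower, and all 77 members were called lower, Mrps6 among them at -0.33. Relative to genes of like brightness the members stayed at -0.016 there, and Mrps6 lay 0.33 above those genes, so the directions of the 4 genes below hold relative to genes of like brightness. The calls also depended on single arrays: by limma, without array 2 or without array 3, 0 members passed (5 and 8 had an unadjusted p under 0.05), while the share of all genes that passed was 3.07% and 0.390%. Without array 1, the calls on Mrps6, Mrpl17 and Mrps24 remained and that on Mrpl54 was lost (limma adjusted p = 0.0671), while 15.5% of all genes passed. The log2 values moved less than the calls: without array 2 and without array 3, Mrpl17 was -0.35 and -0.45, Mrps24 -0.25 and -0.26, Mrpl54 -0.23 and -0.24, and Mrps6 0.34 and 0.27.

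Mrpl17, the counterpart of bacterial L17 near the exit of the large subunit's peptide tunnel, gave the lowest value of all members. Its log2 ratio was -0.43, -0.47 and -0.27 on arrays 1, 2 and 3, below 0 on every array. The mean was -0.39 ± 0.10 (SD, n = 3), 1.31-fold lower in the older-mother pools (limma adjusted p = 0.0202). The single probe lies at chr7:112958345-112958404 of mm9. The adjusted p was 0.0321, 0.0714 and 0.0522 without array 1, 2 and 3.

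Mrps24, a small-subunit protein with the bacterial counterpart S3 at the entry of the message channel, was the most even of the 4. It read -0.25, -0.26 and -0.25 on the 3 arrays. The mean was -0.25 ± 0.0083 (SD, n = 3), 1.19-fold lower in the older-mother pools, with a limma adjusted p of 0.0254. Its probe lies at chr11:5604421-5604480 of mm9.

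Mrpl54, a large-subunit protein without a bacterial counterpart, read -0.26, -0.22 and -0.19. All 3 arrays were thus below 0, with a mean of -0.22 ± 0.035 (SD, n = 3) and a limma adjusted p of 0.0342. Its probe lies at chr10:80727584-80727643 of mm9, and its difference was 1.17-fold.

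Mrps6, the counterpart of bacterial S6 on the platform of the small subunit, was the one member that rose. Its log2 ratio was 0.19, 0.36 and 0.50 on arrays 1, 2 and 3, so that every array was above 0 but the values spread widely. The mean was 0.35 ± 0.15 (SD, n = 3), 1.27-fold higher (limma adjusted p = 0.0319), and -0.33 without loess. Its probe lies at chr16:92112223-92112282 of mm9. The adjusted p was 0.0221, 0.0978 and 0.0886 without array 1, 2 and 3.

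**Figure D2:**
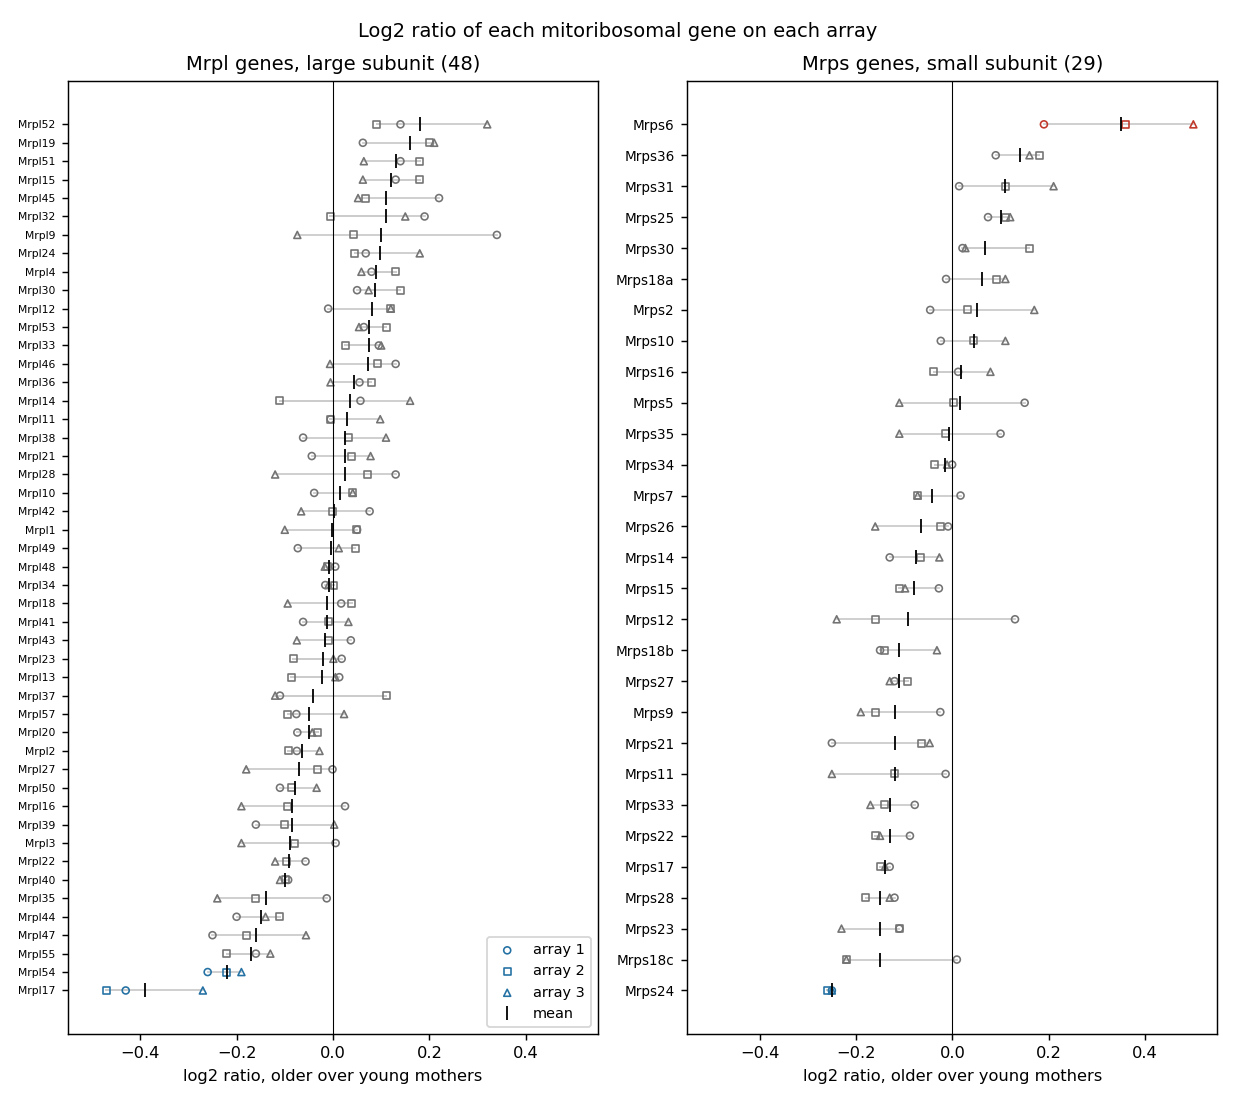
Log2 ratio of older over young mothers (horizontal axis) for each of the 48 Mrpl genes (left) and 29 Mrps genes (right); circles, squares and triangles are arrays 1, 2 and 3, vertical ticks their mean, red the gene that rose and blue those that fell by limma's test. The 3 points lie on the same side of 0 in 42 of the 77 genes; Mrpl17 and Mrps24 stand at the low end of their panels and Mrps6, at -0.33 without loess, at the high end.

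Between an adjusted p of 0.05 and 0.10 lay 9 further members, named here after their values were seen except Mrpl44, Mrps36 and Mrpl47, which the rule for named genes gave. Of these, 6 had means below 0 (Mrpl55 -0.17, Mrpl47 -0.16, Mrpl44, Mrps28 and Mrps23 -0.15 each, and Mrps17 -0.14) and 3 above (Mrpl52 0.18, Mrpl19 0.16 and Mrps36 0.14). In all, 16.9% of members had a limma adjusted p under 0.10, against 31.2% of all genes and 32.0% of those of like brightness. Mrpl44, a large-subunit protein related to ribonuclease III and mutated in an inherited cardiomyopathy, read -0.20, -0.11 and -0.14 (limma adjusted p = 0.0828). Mrpl52 reached 0.32 on array 3 but 0.14 and 0.091 on the others. Mrps36 read 0.090, 0.18 and 0.16 (limma adjusted p = 0.0885). It carries a ribosomal name but is now assigned to the 2-oxoglutarate dehydrogenase complex.

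Other members with well-known roles gave values around 0. Mrpl12, the stalk protein that recruits elongation factors and also binds the mitochondrial RNA polymerase, read -0.010, 0.12 and 0.12. Mrpl3, near the peptidyl transferase centre, read 0.0055, -0.080 and -0.19. Mrps16, a small-subunit protein mutated in an inherited defect of mitochondrial translation, read 0.012, -0.039 and 0.079. The sign was not the same on the 3 arrays for any of these genes. Mrps7, which helps to form the head of the small subunit, read 0.017, -0.073 and -0.072. Mrps34, which stabilizes the small subunit, read -0.00044, -0.037 and -0.011.

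Mrps12, part of the decoding centre, varied most among small-subunit genes, with 0.13, -0.16 and -0.24 (SD 0.19). Mrpl9 varied most of all 77, with 0.34, 0.043 and -0.074 (SD 0.21), and its mean of 0.10 became -0.015 without array 1. At the other end, Mrpl40 had the smallest SD, 0.0074, with -0.093, -0.098 and -0.11. That evenness did not carry it past the test, since limma draws each gene's variance towards the common one (adjusted p = 0.165).

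The subunits were then compared. Among the 48 large-subunit genes 0 rose and 2 fell (9 had an unadjusted p under 0.05 by limma), which is 4.17%, and their median log2 ratio was -0.0064. Among the 29 small-subunit genes 1 rose and 1 fell, which is 6.90%, with a median of -0.076, and 19 of 29 means were below 0. Both shares are below the 17.4% of all genes.

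The large-subunit median lay above the small-subunit median on each array, by 0.019, 0.063 and 0.092 on arrays 1, 2 and 3, a mean of 0.058 ± 0.036 (SD, n = 3). By array the large subunit stood at 0.0051, -0.0035 and -0.0057 and the small subunit at -0.014, -0.066 and -0.098. The gap between the medians of the genes' means was 0.070, but 0.024 without array 3, 0.036 with median centring in place of loess and 0.036 when a gene's probes were averaged. No test was made over these lists. The gap was 0.083 when Mrps18a and Mrps30, found in the large subunit despite their names, were moved there and Mrps36 was left out.

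By evolutionary class, the small-subunit proteins found only in mitochondria had the lowest median, -0.11, with -0.078, -0.093 and -0.13 on the 3 arrays. Of these 11 genes, 0 passed limma's test and 5 had an unadjusted p under 0.05 (45.5%, against 39.0% of genes of like brightness). The means of 9 of the 11 were below 0, and 10 had the same sign on all 3 arrays. Mrps22, mutated in inherited cardiomyopathy and tubulopathy, read -0.088, -0.16 and -0.15 and did not pass. Mrps27, a protein of the pentatricopeptide repeat family, read -0.12, -0.093 and -0.13 (limma adjusted p = 0.131). The exceptions above 0 were Mrps25 at 0.10 and Mrps31 at 0.11, named after their values were seen.

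The 15 small-subunit genes with a bacterial counterpart, which include Mrps6 and Mrps24, had a median of -0.080. In the large subunit the 29 genes with a bacterial counterpart had a median of 0.014 and the 19 mitochondria-specific genes one of -0.013. Mrps18a and Mrps30, which sit in the large subunit, had means of 0.062 and 0.068. The class medians therefore ran from -0.11 to 0.014 for the 4 larger classes, whose middle 50% was 0.12 to 0.14 log2 units wide.

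The arrays ranked the members about as alike as they ranked genes of like brightness, described without a test. Across the 77 genes, which share the arrays and dyes, Pearson's r between arrays was 0.67 for arrays 1 and 2, 0.43 for arrays 1 and 3 and 0.74 for arrays 2 and 3. Across the 5586 genes of like brightness it was 0.68, 0.56 and 0.76. The members' mean log2 ratio had a correlation of 0.068 with brightness and of -0.016 with the GC content of the probe. Loess within arrays removes trends with brightness (0.033 for genes of like brightness), so the first value is no finding about the members.

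**Figure D3:**
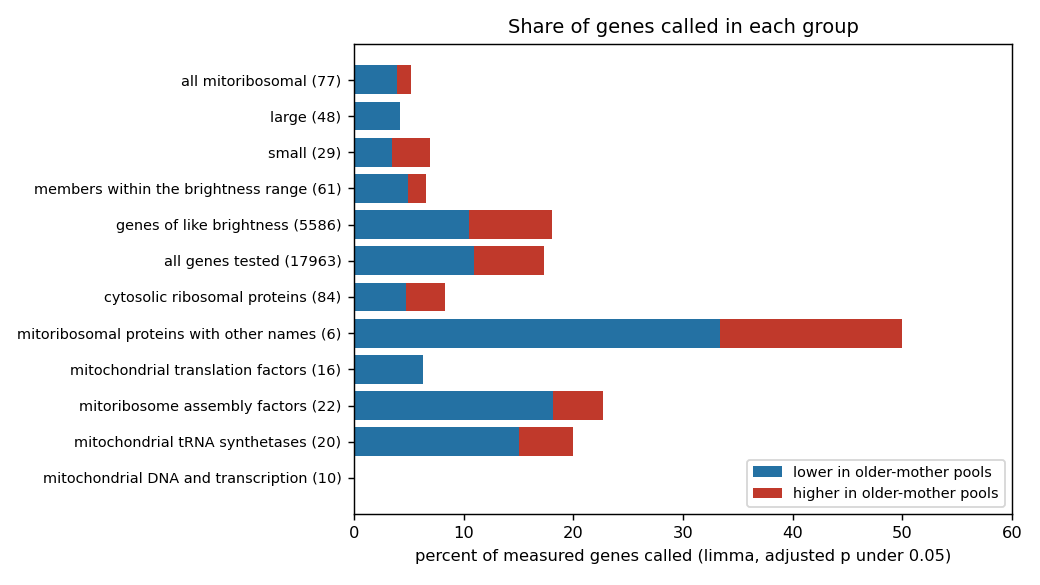
Percent of measured genes that fell (blue) or rose (red) by limma's test at an adjusted p under 0.05 (horizontal axis), for the mitoribosomal genes, their subunits and comparison lists, with the number of genes in brackets; without loess all 77 members were called lower. The members' bar ends at 5.19%, below the 17.4% of all genes tested and the 18.1% of genes of like brightness.

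Where a gene had several probes, they served as separate readings of the same message or of its variants. Of the 108 kept member probes 2 were higher and 5 lower, 6.48%, against 16.6% of the 27629 kept probes of the array (6.96% higher and 9.65% lower). In 27 genes with more than 1 kept probe the means of a gene's probes differed by a median of 0.13 log2 units. The sign was shared by all of a gene's probes in 13 of them and not in 14, and in 12 and 13 of 25 genes when only probes that both dyes detected on every array were used. For scale, the members' median difference between the groups was 0.080. That is the size of 1 probe's mean per gene, not a range over probes, so the 2 values are not like measures.

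Probes other than the brightest passed limma's test in 3 genes, named here after their values were seen, and each of these calls was lost without array 2 and without array 3. A dimmer probe of Mrpl15, a core protein of the large subunit, read 0.33, 0.47 and 0.42 (mean 0.40, adjusted p = 0.0169), whereas the brightest read 0.13, 0.18 and 0.062. The dimmer probe's mean was 0.076 without loess. In Mrpl27, which reaches towards the peptidyl transferase centre, 2 probes of nearly equal brightness (average log2 intensity 12.18 and 12.23) disagreed. The one at chr11:94521320-94521379 of mm9 read -0.20, -0.30 and -0.40 (limma adjusted p = 0.0284), and the one at chr11:94521032-94521091 read -0.00099, -0.032 and -0.18. In Mrps18b a dimmer probe read -0.19, -0.32 and -0.29 (limma adjusted p = 0.0281) and the brightest -0.15, -0.14 and -0.032, all below 0.

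Among probes that both dyes detected on every array, the widest disagreement was in Mrpl47, whose 4 probes spanned 0.32 log2 units, with means on both sides of 0. In Mrps14, 2 such probes spanned 0.28, with means of -0.076 and 0.20, and on no array was its other probe well above background in Cy3. The second probe of Mrpl9 was well above background in Cy3 on only 2 arrays, and its value is not read here. The 2 probes of Mrps36 had means of 0.14 and 0.085. Those of Mrpl40, overlapping on the genome, had means of -0.10 and -0.13.

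**Figure D4:**
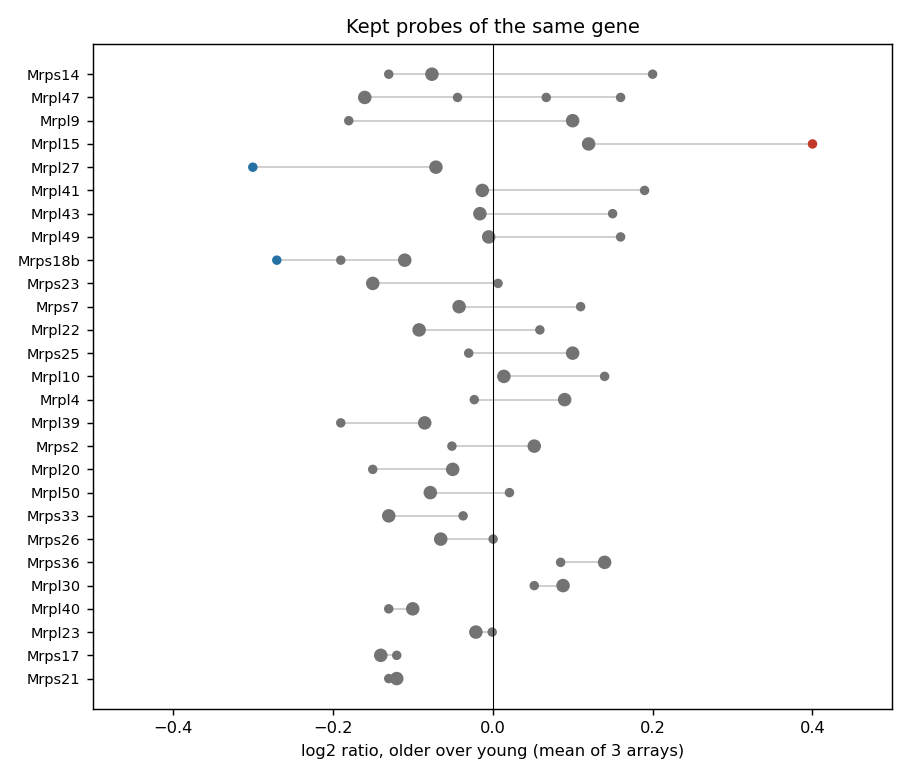
Mean log2 ratio over the 3 arrays (horizontal axis) of each kept probe in the 27 genes with more than 1, the large point being the brightest probe; red is higher and blue lower by limma's test. In 14 genes the points lie on both sides of 0; on no array did Cy3 detect a dimmer probe of Mrps14 and Mrpl20, and it detected that of Mrpl9 on only 2, and the called probes of Mrpl15, Mrpl27 and Mrps18b are not the brightest.

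Repeated spots of 1 probe gave a further reading of technical error. Mrpl34, Mrpl50 and Mrps35 are each printed 10 times, and the SD over a probe's spots within an array was 0.030 to 0.057. For Mrps35 the means over spots were 0.10, -0.014 and -0.11 on arrays 1, 2 and 3. For Mrpl34 they were -0.016, 0.0021 and -0.0094. The spots of an array share its pools and hybridization, so their SD holds neither.

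The promoters of 3 genes that passed, Mrpl17, Mrps24 and Mrps6, were compared, the fourth being Mrpl54, because mitoribosomal genes are known targets of the nuclear respiratory factors NRF1 and GABP and of YY1, which tie nuclear genes to mitochondrial needs. RefSeq promoters of build GRCm38.p6, 250 bases before to 50 after the start, were matched by symbol for 68 member genes, 74 promoters in all. The letters searched on both strands were, for NRF1, those of GCGCACGCGC with any base in place of the sixth, CCGGAAG for GABP, AAGATGGC for YY1 and GGGCGG for SP1. Capitals below mark the NRF1, GABP and YY1 letters on either strand, and positions count the start as 1 and the base before it as -1. Shown, to let the letters be seen, are Mrpl17 at chr7:105811038-105811337 (minus strand), Mrps24 at chr11:5707652-5707951 (minus strand) and Mrps6 at chr16:92058086-92058385 (plus strand).
Mrpl17: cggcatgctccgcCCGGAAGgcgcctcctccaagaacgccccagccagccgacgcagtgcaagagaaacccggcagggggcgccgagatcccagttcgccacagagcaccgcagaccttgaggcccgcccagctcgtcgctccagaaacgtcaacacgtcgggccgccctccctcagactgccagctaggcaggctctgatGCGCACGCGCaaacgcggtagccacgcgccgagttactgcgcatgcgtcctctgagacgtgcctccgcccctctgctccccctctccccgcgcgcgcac
Mrps24: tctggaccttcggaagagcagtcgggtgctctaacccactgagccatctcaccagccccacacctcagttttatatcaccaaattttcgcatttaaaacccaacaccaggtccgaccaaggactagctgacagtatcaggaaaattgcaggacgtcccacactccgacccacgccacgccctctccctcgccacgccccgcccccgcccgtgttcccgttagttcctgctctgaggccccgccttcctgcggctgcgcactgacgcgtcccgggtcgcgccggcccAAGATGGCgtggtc
Mrps6: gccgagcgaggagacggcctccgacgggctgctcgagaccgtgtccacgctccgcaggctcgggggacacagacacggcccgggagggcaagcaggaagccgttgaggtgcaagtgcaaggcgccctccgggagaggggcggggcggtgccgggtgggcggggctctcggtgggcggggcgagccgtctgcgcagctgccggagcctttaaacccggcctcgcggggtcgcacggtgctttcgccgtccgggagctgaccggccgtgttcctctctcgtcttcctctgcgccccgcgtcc
The Mrpl17 promoter holds GCGCACGCGC at -49 and CCGGAAG at -237, and that of Mrps24 holds AAGATGGC at 37. That of Mrps6 holds none of these. SP1 letters on either strand were found 4 times each in Mrps6 (-114, -109, -95 and -79) and Mrpl17 (-241, -126, -87 and 16) and 2 times in Mrps24 (-53 and -47). A match is a description of the letters, not a bound site.

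Over all member promoters the letters for NRF1 were found in 17.6%, for GABP in 33.8% and for YY1 in 16.2%. The promoters of all other tested genes held them in 7.86%, 13.9% and 3.56%, and all promoters of the table in 4.60%, 8.86% and 2.75%. The 74 promoters of cytosolic ribosomal protein genes held them in 8.11%, 33.8% and 10.8%, so the GABP share equalled that of the members. SP1 letters were in 52.7% of member promoters and 55.6% of those of other tested genes. Within the members, the median log2 ratio was -0.049 for the 13 genes with NRF1 letters and -0.013 for the 55 without. For GABP it was -0.065 in 25 genes with and -0.0014 in 43 without, and for YY1 -0.042 in 12 and -0.013 in 56. For SP1 it was -0.046 in 34 genes with and 0.024 in 34 without. On single arrays the order was not constant: GABP gave -0.0089 with and -0.010 without on array 1, SP1 -0.0021 with and -0.011 without on array 1, and NRF1 0.0025 with and -0.034 without on array 3. None of these differences was tested.

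Mrps6 shares its start with a gene of another function. On GRCm38.p6, Mrps6 spans chr16:92058336-92112227 and Slc5a3, the sodium-coupled myo-inositol transporter, spans chr16:92058322-92087473. They lie on the same strand and start 14 bases apart, both within the promoter window printed above. A start shared on the same strand, within 100 bases, was found for 1 of 68 members (1.47%) and for 0.389% of 13121 other tested genes. Slc5a3 was looked at after the value of Mrps6 was known.

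Slc5a3 was also higher in the older-mother pools, on both of its probes. The brighter probe read 0.67, 0.75 and 0.70 on the 3 arrays, a mean of 0.71 ± 0.040 (SD, n = 3), 1.63-fold (limma adjusted p = 0.0112). The other read 0.42, 0.47 and 0.43, a mean of 0.44 ± 0.025 (SD, n = 3; limma adjusted p = 0.0140), and did not pass without array 3 (adjusted p = 0.0522). Slc5a3 was thus even over the arrays, whereas Mrps6 varied from 0.19 to 0.50 and read below the brighter Slc5a3 probe on every array. Without loess the Slc5a3 means were 0.19 and 0.062 and that of Mrps6 was -0.33. On mm9 the Slc5a3 probes lie at chr16:92079366-92079425 and chr16:92087281-92087340, ahead of the Mrps6 probe at chr16:92112223-92112282. Which transcripts each of these probes reads was not tested.

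**Figure D5:**
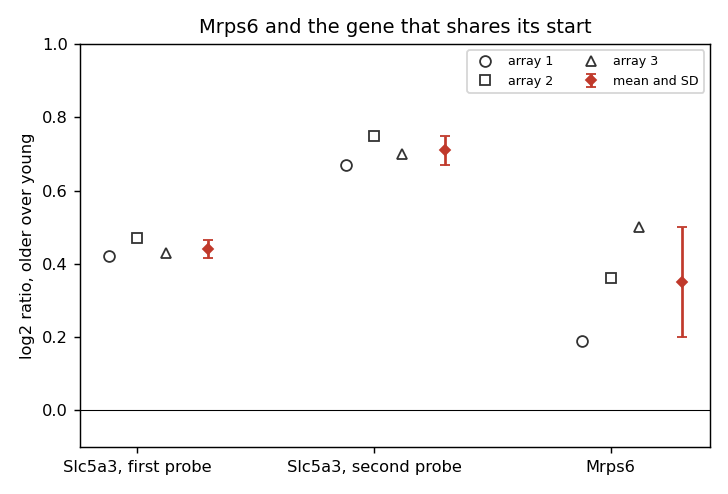
Log2 ratio of older over young mothers (vertical axis) on arrays 1 to 3 (circle, square, triangle) for the 2 probes of Slc5a3 and the probe of Mrps6; red diamonds with bars are the mean and SD of the 3 arrays. All 9 points lie above 0, those of Slc5a3 at 0.42 to 0.75 and those of Mrps6 at 0.19 to 0.50 (without loess the means were 0.062, 0.19 and -0.33).

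Many members start head to head with another gene. A gene on the opposite strand starting within 1000 bases was found for 26 of 68 members (38.2%), against 16.7% of 13121 other tested genes. In 24 such pairs both genes were measured, and the partner rose in 1, fell in 5 and did not pass in 18, beside 6.40% higher and 11.0% lower among all genes. The partners that fell were Ighmbp2 beside Mrpl21, Eme1 beside Mrpl27, Cyb5rl beside Mrpl37, Zfp661 beside Mrps5 and Sars2 beside Mrps12, with means from -0.36 to -0.24. Zfp189 beside Mrpl50 rose, with a mean of 0.21. None of these 6 members passed on its brightest probe, and the signs within a pair were the same in 11 of 24. The partners were named after their values were seen, and each of these 6 calls was lost without array 2 and without array 3. Without loess Zfp189 was -0.40 and Eme1 -0.014. Eme1 was also -0.090 without background correction and 0.033 with Agilent's processed signals, and it passed in none of these settings.

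Other genes of mitochondrial translation were listed by role. The mitoribosomal proteins with other names gave 1 higher and 2 lower of 6 measured, against 17.4% of all genes, which with so few genes is a description only. Aurkaip1, a small-subunit protein, read 0.87, 0.46 and 0.73 (mean 0.69, limma adjusted p = 0.0165) and its second probe had a mean of 0.56; without loess these were -0.091 and -0.18, and without array 3 neither probe passed (adjusted p = 0.0574 and 0.0636). Mrpl58, named Ict1 on the array, a peptidyl-tRNA hydrolase built into the large subunit, read -0.33, -0.28 and -0.30 (limma adjusted p = 0.0206). Gadd45gip1, at the tunnel exit of the large subunit, read -0.32, -0.28 and -0.23 (limma adjusted p = 0.0241), but its second probe had a mean of 0.014. The remaining 3, Dap3, Ptcd3 and Chchd1 of the small subunit, named to complete the list, had means of 0.093, 0.066 and 0.13 and did not pass.

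In the next lists the shares that passed are to be read against the 17.4% of all genes. Of 22 assembly factors 1 rose and 4 fell, 22.7%. Mrm1 and Tfb1m, which methylate the RNA of the large and of the small subunit, fell with means of -0.26 each, and Mterf3, needed to assemble the large subunit, rose with a mean of 0.20 (-0.18 without loess). Of 16 translation factors 0 rose and 1 fell, Guf1, a back-translocating elongation factor, with a mean of -0.19 and -0.24 on its second probe. Of 20 genes for mitochondrial tRNA charging 1 rose, Wars2 with a mean of 0.28 (-0.13 without loess), and 3 fell, among them Sars2 with -0.25. The second probe of Wars2 had a mean of 0.17 and did not pass. Of 10 genes of mitochondrial DNA upkeep and transcription 0 passed limma's test and 5 had an unadjusted p under 0.05, which 37.9% of all genes had. Without array 2 and without array 3 the calls on Mrpl58, Gadd45gip1, Mrm1, Tfb1m, Guf1, Mterf3, Wars2 and Sars2 were all lost, and those on Mrm1, Guf1 and Mterf3 also without array 1. The means changed little: Mrm1 stood at -0.23, -0.29 and -0.26 without array 1, 2 and 3 and Mterf3 at 0.17, 0.22 and 0.22.

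Cytosolic ribosomal proteins are the closest counterpart by function. Of 84 genes 3 rose and 4 fell, 8.33%, beside 5.19% of the mitochondrial ones and 17.4% of all genes, a difference that was not tested, and their median was 0.036, with 0.037, 0.0069 and 0.057 on the arrays, above the members' -0.013.

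Markers of choroid plexus differed between the pools by more than any member did. All 10 choroid plexus markers had means below 0, with a median of -1.18 and array medians of -0.88, -2.17 and -0.42, and 3 of them passed limma's test. The counts in these lists are to be read against the 17.4% of all genes that passed, 6.40% higher and 11.0% lower. Leptomeningeal markers fell in 7 of 10, with array medians of -0.40, -0.56 and -0.27. Endothelial markers fell in 3 and rose in 1 of 6, with -0.46, -0.42 and -0.097. Of 6 blood markers 3 rose and 1 fell, with array medians of 0.14, 0.17 and -0.0088. Markers of hippocampal neurons rose in 3 and fell in 2 of 10, with array medians of -0.010, 0.0095 and 0.013. Thalamic and striatal markers and astrocyte markers each rose in 1 of 6, and microglial markers rose in 1 and fell in 1 of 6. Of 6 oligodendrocyte markers 0 passed limma's test or had an unadjusted p under 0.05. All of these markers but 1 blood marker were above background in both channels on every array. The choroid plexus markers were lowest on array 2, as were Mrpl17 and, by little, Mrps24, whereas Mrpl54 was lowest on array 1 and Mrps6 highest on array 3. Their part in the members' values was not tested.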

How the data were processed

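Per the file headers, the scanner files came from Agilent Feature Extraction 10.10.1.1 (probes of 60 bases, coordinates on mm9) and hold raw and processed intensity values. Per the file headers, a column of log10 ratios sets Cy5 against Cy3, and spot flags (other) are 0 or 1. In the deposited table, each value is log2 of Cy3 over Cy5, centred near 0 (array medians -0.0054, -0.0051 and -0.0056). How the authors made it is not given in the sources used here, but normexp with offset 50 and loess on the median signals gave the same values within 5e-10 on 44397 spots. The offset pulls ratios of dim probes towards 0.

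From the deposited log2 ratios, spots of a probe were averaged, and a probe was kept if well above background in Cy3 or in Cy5 on all 3 arrays (27629 of 39429). An intercept was fitted with limma 3.58.1 in R 4.3.3 (lmFit, eBayes, two-sided, 2 residual and 3.61 prior degrees of freedom). All arrays were on 1 slide, so no batch term was possible. The p-values set a mean ratio against the spread of the 3 array ratios, which holds pools, labelling and hybridization together. Files were also read with jsonlite 2.0.0 and summaries made with Python 3.11.15, pandas 2.3.3 and matplotlib 3.10.9. Names of 28025 probes were matched to RefSeq (GRCm38.p6).

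The members and lists were chosen with earlier results of these data known. Genes named were those past the threshold with 1 sign on all arrays (at most 8 each way per subunit), 12 members of fixed interest, the members with the most and least spread or the most discordant probes, and up to 2 per direction of other lists; further names are marked in the text. Alternatives covered the signals used, background correction, normalization, filter, variance model, array weights, threshold, probe choice, subunit assignment and each array left out.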

Additional observations from a re-analysis of the deposited data

How the results depend on the processing

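The main counts were 1 member higher and 3 lower. They were 0 and 1 with Agilent's processed signals, 1 and 6 without background correction, 0 and 2 with an offset of 16, 0 and 77 with median centring, 6 and 15 with array weights, 0 and 0 at an adjusted p under 0.01, 4 and 9 at 0.10, 2 and 4 when a gene's probes were averaged, and 2 and 5 when every kept probe was counted, an alternative chosen after seeing the data. Over all genes the share called was 9.22%, 24.6%, 11.1%, 85.9% and 41.7% in the first 5 of these. It was 0.00557% at an adjusted p under 0.01, 31.2% at 0.10 and 16.3% when a gene's probes were averaged. Of all kept probes 16.6% were called. With mean signals, scaling between arrays, no filter, a filter on both channels, or a variance trend with robust settings the counts stayed at 1 and 3. The share of all genes called was 19.6%, 17.5%, 13.0%, 18.2% and 14.0% in these settings. Leaving out each array gave 0 to 1 higher and 0 to 2 lower, with 15.5%, 3.07% and 0.390% of all genes called without array 1, 2 and 3. The members' median was then -0.034 to -0.015 (main -0.013), and the large-minus-small gap 0.024 to 0.060 (main 0.070). The median with median centring was -0.67.

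Of the named members, Mrps16 changed sign to -0.0062 with processed signals, -0.67 with centring, -0.016 with array weights and -0.014 without array 3 (0.046 at the most with an array left out). Mrpl9 turned to -0.50 with centring, -0.015 without array 1 (0.19 without array 3) and -0.036 over its probes, and Mrps7 to 0.035 over its probes. With centring Mrpl12 was -0.61, Mrps18a -0.63, Mrps30 -0.54, Mrps36 -0.53 and Mrps6 -0.33. Apart from the threshold and left-out arrays, which change the number of genes or samples that can pass, the cause of these changes was not tested. The test is itself paired by array, since each ratio sets an older-mother pool against a young-mother pool. The pools carry no other shared number by which to pair them.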
